A study of Rattus norvegicus with 20 samples.

Results

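Peptide hormone receptors in the rat supraoptic nucleus (SON) are described here through 10 genes, taken by name from the 32402 genes measured (20849 of them with a symbol). They were Avpr1a and Oxtr, the receptors for vasopressin and oxytocin, Rxfp3, Cckar, Cckbr, Galr1, Oprk1, Agtr1a, Gipr and Bdkrb2. Gipr, Cckbr and Bdkrb2 entered because they were selected on their change in RNA level with age or dehydration in these same samples, so their values are given below as a description with no test. The other 7 were listed by name and tested. This list and the lists of related genes below were drawn up with earlier results of these data known, so counts over them are descriptions.

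RNA of the SON, taken as bilateral punches of the hypothalamus, was sequenced in 20 male Wistar Han rats that form 4 groups of 5. Adult rats were 3 months old and aged rats 18 months old, and at each age 5 rats drank freely (euhydrated, EH) and 5 had water withdrawn (dehydrated, DH). The methods state that cages, rather than single rats, were assigned to EH or DH. The labels name no cage, so the tests below take each rat as independent. The sample labels give 2 days without water, whereas the methods of the study give a longer period. The libraries, 1 per rat, had 24268398 to 30348118 reads assigned to genes.

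The SON holds large magnocellular neurones that make vasopressin or oxytocin and release them into the blood from the posterior pituitary. These cells also carry receptors for many peptides, most of which are G protein-coupled, and their firing is set in part by peptides that they or neighbouring cells release. Dynorphin, cleaved from the product of Pdyn and acting on the kappa opioid receptor (Oprk1), is released with vasopressin and restrains firing, while cholecystokinin and angiotensin II excite the cells. GIP is a gut hormone that raises insulin release, relaxin-3 is a brain peptide that acts on RXFP3 in arousal and feeding circuits, and bradykinin acts through BDKRB2 in pain and inflammation.

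A few of the 10 genes moved. Rxfp3 rose with age and with DH at each age, and Cckbr was higher after DH at each age. Gipr was higher and Bdkrb2 lower in aged than in adult EH rats. Of the 7 receptors tested, 1 passed the test with age, 1 with DH in adults and 1 with DH in aged rats, and each time it was Rxfp3. Over all genes, 5.99% passed the test with age, 12.7% with DH in adults and 7.29% with DH in aged rats, and 1 of 7 receptors is too few to be set apart from these shares.

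Rxfp3 and Cckbr are the members whose RNA was higher after DH at each age, and the 250 bases before their annotated starts are shown for this reason, from RefSeq (assembly GRCr8, 1-based, 5′ to 3′ on the strand of the gene). Promoters were found for 6 of the 10 genes. Capitals mark TGACG, the core of a cAMP response element, and GGGCGG, a GC box, on either strand, so that CGTCA and CCGCCC are the same motifs read on the other strand. The Rxfp3 window lies on the minus strand at chr2:61731807-61732056 and the Cckbr window on the plus strand at chr1:169183328-169183577.
Rxfp3: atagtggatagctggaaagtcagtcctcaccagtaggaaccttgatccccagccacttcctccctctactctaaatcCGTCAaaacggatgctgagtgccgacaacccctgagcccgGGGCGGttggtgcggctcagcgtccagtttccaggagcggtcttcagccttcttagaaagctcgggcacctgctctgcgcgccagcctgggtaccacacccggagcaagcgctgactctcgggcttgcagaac
Cckbr: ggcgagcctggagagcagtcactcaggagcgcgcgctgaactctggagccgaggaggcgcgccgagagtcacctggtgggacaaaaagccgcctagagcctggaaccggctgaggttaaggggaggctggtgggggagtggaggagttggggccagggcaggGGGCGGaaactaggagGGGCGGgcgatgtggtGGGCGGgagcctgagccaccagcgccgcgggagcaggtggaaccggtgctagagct

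The Rxfp3 window held 1 TGACG, at -173 from the start on the reverse strand, and 1 GGGCGG, at -133. The Cckbr window held 3 GGGCGG, at -88, -72 and -56, and no TGACG. Of 33469 windows of the same length in the RefSeq table, 18.2% held a TGACG and 30.5% a GGGCGG. The full 8-base element TGACGTCA was in 1.59% of windows and in none of the 6 found here. Avpr1a, Oxtr and Agtr1a also held 1 TGACG each, so the motif was not limited to the window of a gene that was higher after DH. These matches are of letters and do not show that a factor binds.

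Levels of single rats are given as normalised counts, which are reads divided by a size factor of the library set over all 20 rats, in the order of the replicate numbers. Log2 fold changes (LFC) come from limma on log2(deposited value + 1) within each comparison, with the SE after ±. Deposited values are reads over a size factor set within the comparison. Padj is the Benjamini-Hochberg adjusted p over all genes with a mean of at least 10. Gene length was not used, so levels are compared between rats and never between genes. In tissue punches, fewer cells of a type and less RNA per cell cannot be told apart.

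**Figure D1:**
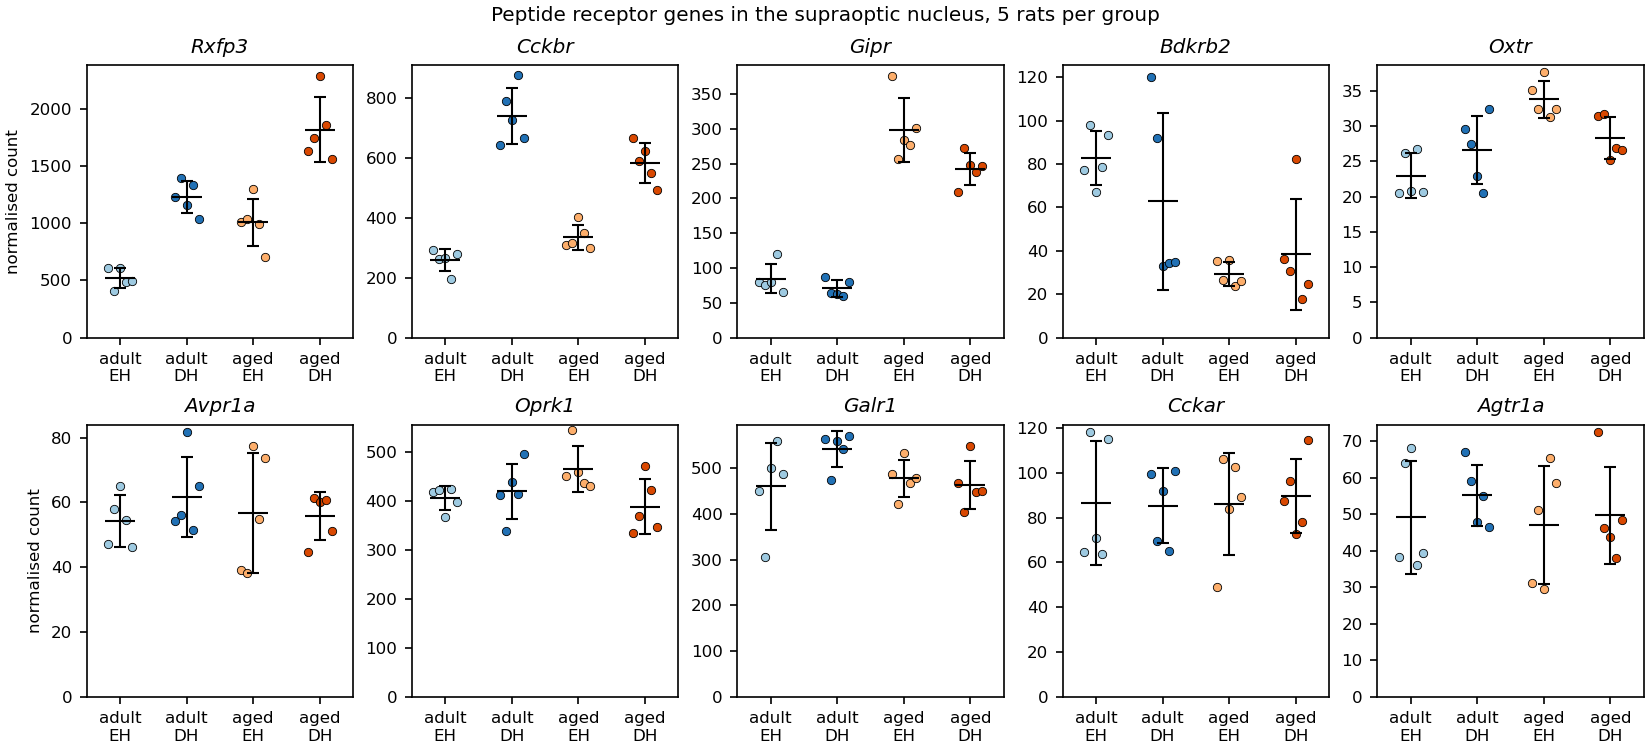
Normalised counts of the 10 receptors (vertical axis, from 0, a scale of its own in each panel) in adult EH, adult DH, aged EH and aged DH rats, with 1 point per rat and bars at the mean ± SD of 5 rats. Rxfp3 stood at 409 to 613 in adult EH and 1564 to 2292 in aged DH rats, Gipr at 209 to 376 in aged and 59.5 to 119.7 in adult rats, and Avpr1a, Cckar and Agtr1a overlapped in all 4 groups.

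Rxfp3 (ENSRNOG00000023126) encodes the receptor of relaxin-3. Its normalised counts were 611, 409, 613, 490.1 and 494 in adult EH rats and 1229, 1398, 1160.1, 1339 and 1042 in adult DH rats. Every adult DH rat was above every adult EH rat. In aged rats the counts were 1008, 1037, 1298, 992 and 708 in EH and 1636, 1753, 2292, 1863 and 1564 in DH, again with no overlap. Of all genes tested, 10.9% had ranges of EH and DH that did not overlap in adults and 7.05% in aged rats. The order of the group means was aged DH (1821 ± 287, SD, n = 5), adult DH (1234 ± 142), aged EH (1009 ± 209) and adult EH (523 ± 87.8). Adult DH and aged EH overlapped, and all other neighbours in this order were apart.

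With age, Rxfp3 rose in EH rats by an LFC of 0.93 ± 0.14 (1.91-fold, limma Padj = 0.00203). With DH it rose by 1.24 ± 0.108 in adults (2.37-fold, limma Padj = 6.6e-06) and by 0.87 ± 0.132 in aged rats (1.82-fold, limma Padj = 0.00177). Rxfp3 was the only one of the 7 tested receptors that passed in any of these comparisons, and it passed in all 3 under every alternative tried. The response to DH in aged rats less that in adults was -0.38 ± 0.189, with a 95% interval from -0.77 to 0.01 (limma Padj = 0.519), so a difference between ages was not established. Its ligand gene Rln3, expressed mainly by neurones of the brainstem, had 0 to 11 reads per library in the SON.

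Some markers of magnocellular neurones passed the test as higher in the same comparisons. Of the 5 fixed as markers (Avp, Oxt, Caprin2, Creb3l1 and Pdyn), 2 were higher with age, 4 with DH in adults and 3 with DH in aged rats. Over all genes, 2.69% were higher with age, 7.67% with DH in adults and 4.05% with DH in aged rats. Avp and Oxt did not pass with age (limma Padj = 0.388 and 0.0524). Nor did they pass with DH in aged rats (limma Padj = 0.502 and 0.575). Their summed normalised count was 209684 to 302842 in adult EH, 310509 to 411799 in adult DH, 263627 to 377147 in aged EH and 316584 to 525351 in aged DH rats. The correlation (Pearson's r, log2 values) of Rxfp3 with this sum was 0.84 over the 20 rats and 0.74 with group means taken off. Within groups, the rat with the lowest sum also had the lowest Rxfp3 in 3 of 4 groups. The rat with the highest sum had the highest Rxfp3 in 2 of 4. Most of the sum was Avp and Oxt, with means of 166779 and 81118 in adult EH rats. The study names Avp, Creb3l1 and Caprin2 among genes that respond to dehydration, so the sum does not separate more cells from more RNA per cell. The part of these markers in the Rxfp3 result was not tested.

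**Figure D2:**
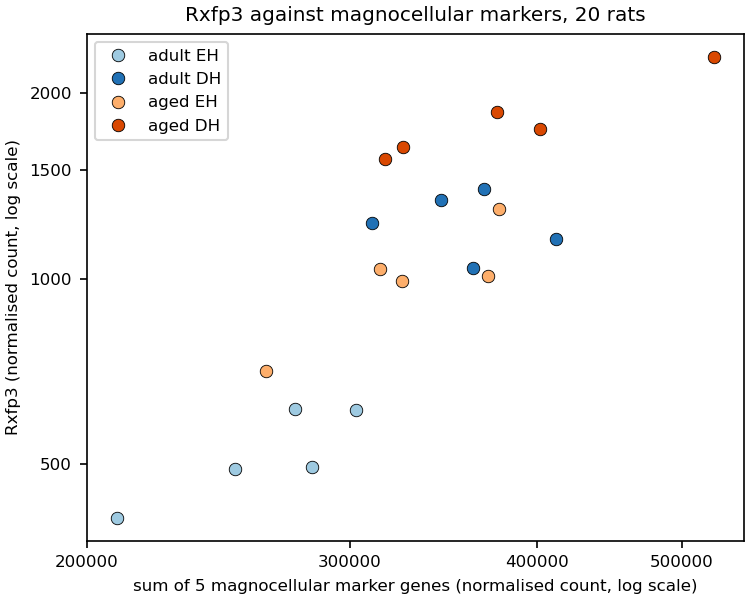
Normalised count of Rxfp3 (vertical, log scale) against the summed normalised count of the 5 magnocellular marker genes (horizontal, log scale), 1 point per rat, coloured by group. Adult EH rats lie lowest on the vertical axis, at marker sums of 209684 to 302842 that overlap with aged EH rats, and 1 aged DH rat, at 525351 and 2292, lies highest on both.

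Rxfp1, a relaxin receptor that relaxin-3 can also activate, was higher after DH in aged rats, with 431 to 572 in EH and 583 to 719 in DH (LFC 0.39 ± 0.0794, limma Padj = 0.00875). In adults its LFC was also 0.39, with ranges of 377 to 438 in EH and 387 to 679 in DH that overlapped (limma Padj = 0.0413), and this call held only without adult EH replicate 4 or adult DH replicate 1 among the fits that each left out 1 rat (Padj up to 0.0874 in the others). The adult call was also lost under 3 alternatives that kept every rat (limma Padj up to 0.0771). Rxfp2, another relaxin family receptor, had an LFC between -0.28 and 0.11 in the 3 comparisons and passed in none.

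Cckbr (ENSRNOG00000017679) encodes the CCK2 receptor, which binds cholecystokinin and gastrin. It was chosen for its change, and the following is a description. Counts were 292, 262, 267, 195 and 278 in adult EH rats and 643, 792, 726, 876 and 667 in adult DH rats. The lowest adult DH rat was above the highest adult EH rat by more than the whole spread of the EH group. In aged rats the counts were 309, 316, 403, 348 and 299.8 in EH and 668, 589, 622, 549.8 and 492 in DH, with no overlap.

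The LFC of Cckbr with DH was 1.52 ± 0.109 in adults (2.86-fold) and 0.80 ± 0.0943 in aged rats (1.74-fold), and the difference between these responses was -0.72 ± 0.154. With age its LFC was 0.37 ± 0.111 in EH rats, whose ranges did not overlap. Group means ran from adult DH (741 ± 94.9) through aged DH (584 ± 67.4) and aged EH (335 ± 42.0) to adult EH (259 ± 37.5), and only the DH groups of adult and aged rats overlapped as neighbours. Leaving out any 1 rat kept the LFC with DH between 1.42 and 1.57 in adults and between 0.75 and 0.87 in aged rats.

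Cckar (ENSRNOG00000043124), the CCK1 receptor, binds cholecystokinin but not gastrin with high affinity. Adult rats had normalised counts of 64.7, 118, 70.8, 63.97 and 115 in adult EH and 99.5, 69.7, 91.8, 65.2 and 101 in adult DH rats. They were 49.2, 106, 83.7, 102 and 89.1 in aged EH and 87.6, 96.2, 72.8, 77.8 and 114 in aged DH rats. The 4 groups overlapped, and the highest of the group means was 1.05 times the lowest. The 95% interval of the LFC was -0.50 to 0.49 with age, -0.42 to 0.45 with DH in adults and -0.33 to 0.51 with DH in aged rats (limma Padj = 0.996, 0.974 and 0.85), and changes within these intervals could not be told from none.

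The shared ligand gene Cck moved the other way from Cckbr in aged rats. Its normalised counts were 804, 703, 848, 1039 and 646 in aged EH and 501, 684, 666, 473 and 558 in aged DH rats, so that 1 EH rat was below 2 DH rats (LFC -0.48 ± 0.126, limma Padj = 0.0327). This call was lost without aged EH replicate 1, 4 or 5 or aged DH replicate 1, 5 or 6 (Padj up to 0.0895). Under 2 alternatives that kept every rat it was also lost (limma Padj up to 0.0977). Adult rats had Cck at 534 to 1330 in EH and 617 to 1003 in DH (LFC -0.08 ± 0.22, limma Padj = 0.86). Markers of glutamatergic neurones of cortex and amygdala, many of which make cholecystokinin, moved with it. Of the 8 markers, 5 fell with DH in aged rats, against 3.25% of all genes. Their summed normalised count was 11750 to 18744 in EH and 6902 to 10480 in DH. Their part in the Cck result was not tested.

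Gipr (ENSRNOG00000015860) encodes the receptor of glucose-dependent insulinotropic polypeptide, a class B receptor that raises cAMP. It was chosen for its change with age, and its values are a description. The normalised counts were 80.4, 75.5, 80.3, 119.7 and 64.9 in adult EH rats and 376, 256, 284, 277 and 302 in aged EH rats. After DH they were 86.7, 63.4, 62.9, 59.5 and 80.1 in adults and 209, 272, 248, 237 and 247 in aged rats. All 10 aged rats were above all 10 adult rats, with 119.7 the highest in adults and 209 the lowest in aged rats.

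The LFC of Gipr with age was 1.83 ± 0.149 in EH rats (3.56-fold), and it lay between 1.75 and 1.96 when any 1 rat was left out. With DH its LFC was -0.24 ± 0.166 in adults and -0.29 ± 0.102 in aged rats, and the EH and DH ranges overlapped at each age. Gip, the gene of its ligand, had no read in 19 of 20 libraries and 1 read in 1 aged DH rat, so its ligand gene was not detectable in the SON at this depth in nearly all rats.

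Bdkrb2 (ENSRNOG00000047300) encodes the B2 bradykinin receptor, and it too was chosen for its change with age. In EH rats the normalised counts were 77.4, 97.8, 67.1, 78.4 and 93.4 in adults and 35.2, 26.5, 35.7, 23.7 and 26.1 in aged rats, an LFC of -1.47 ± 0.164 with no overlap. After DH the counts split in each age group. In adults 2 rats had 120.2 and 91.9 and the other 3 had 32.9, 34.3 and 34.6, while in aged rats 1 rat had 82.5 and the rest had 36.2, 30.7, 18.0 and 24.7.

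Across the 20 rats no value of Bdkrb2 lay between 36.2 and 67.1, with 12 rats below this gap and 8 above it. The 8 above were all 5 adult EH rats, 2 adult DH rats and 1 aged DH rat, and no aged EH rat was among them. This gap was 1.85-fold, and since Bdkrb2 was chosen for its change with age, it is a description. The LFC with DH was -0.61 ± 0.329 in adults, where the EH and DH ranges overlapped, and 0.19 ± 0.318 in aged rats, where leaving out the rat at 82.5 gave -0.13. The reads behind these values were 18 to 122 per library. Kng2, a gene of the kininogen from which bradykinin is cut, had 0 to 9 reads per library.

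Both genes moved with age together with markers of other cells. Of 8 markers of fibroblasts and meninges, 7 had enough reads to be tested and 5 of these fell with age, and their summed normalised count was 12096 to 14561 in adult EH and 5328 to 8614 in aged EH rats. It was 5434 to 8060 in aged DH rats. In adult DH rats it was 16558 and 15883 in the 2 rats with high Bdkrb2 and 15773, 15038 and 13093 in the 3 rats with low Bdkrb2. Of these 8, Col1a2 was at 0 in every library. Of 6 microglial markers, 3 rose with age, with sums of 4780 to 5401 in adult EH and 5651 to 6748 in aged EH rats. Also with age, 3 of 6 oligodendrocyte, 2 of 6 astrocyte and 2 of 8 endothelial and mural markers fell. Over all genes, 2.69% rose and 3.3% fell with age. With group means taken off, the correlation (Pearson's r, log2 values) with the fibroblast and meningeal sum was -0.005 for Gipr and -0.03 for Bdkrb2. With the microglial sum it was -0.08 for Gipr and 0.24 for Bdkrb2. The part of these cell markers in the Gipr and Bdkrb2 values was not tested.

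**Figure D3:**
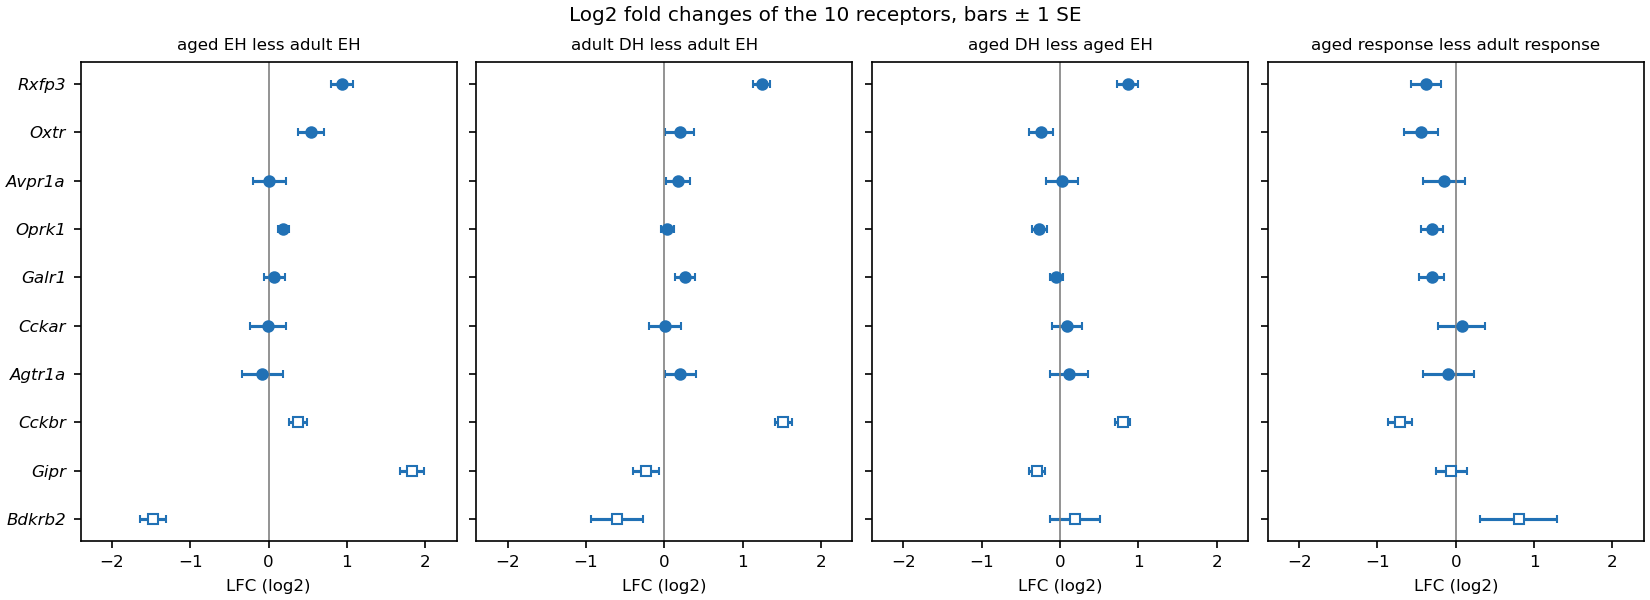
LFC (horizontal, log2) of the 10 receptors in 4 panels, for aged EH less adult EH, adult DH less adult EH, aged DH less aged EH, and the aged response to DH less the adult response, with bars of ± 1 SE. Filled circles are the 7 tested receptors and open squares the 3 chosen for their change. Rxfp3 lies to the right of 0 in the first 3 panels (0.93, 1.24 and 0.87), and Gipr (1.83) and Bdkrb2 (-1.47) lie farthest out in the first.

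Oxtr (ENSRNOG00000005806), the oxytocin receptor through which oxytocin neurones excite themselves, had few reads (18 to 37 per library). Its normalised counts were 20.6, 26.1, 20.8, 26.8 and 20.6 in adult EH and 35.2, 32.4, 37.8, 31.3 and 32.4 in aged EH rats. These ranges did not overlap, as was the case for 6.38% of all genes tested. The LFC with age was 0.54 ± 0.165 with a 95% interval of 0.19 to 0.90, and it missed the threshold after adjustment (limma Padj = 0.0729). After DH the counts were 29.6, 27.5, 23.0, 20.6 and 32.5 in adults and 31.4, 31.7, 25.2, 26.9 and 26.6 in aged rats. They overlapped with EH at each age, with an LFC of 0.19 ± 0.186 in adults and -0.25 ± 0.155 in aged rats (limma Padj = 0.551 and 0.398).

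Avpr1a (ENSRNOG00000004400), the V1a receptor that couples vasopressin to calcium signals, showed no shift beyond its spread in any comparison. Its normalised counts were 47.0, 58.1, 65.2, 54.7 and 46.2 in adult EH and 54.2, 56.01, 81.9, 51.5 and 64.96 in adult DH rats. They were 39.2, 38.3, 77.5, 54.98 and 73.8 in aged EH and 44.8, 61.4, 60.2, 60.9 and 51.3 in aged DH rats. All groups overlapped, and the aged EH rats were the most spread, with 2 below every other rat. The 95% interval of the LFC was -0.44 to 0.46 with age, -0.16 to 0.51 with DH in adults and -0.42 to 0.47 with DH in aged rats (limma Padj = 0.986, 0.523 and 0.965).

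Of the hormone genes, Avp rose with DH in adults, from 115638 to 199129 in EH to 194073 to 260429 in DH (LFC 0.48 ± 0.124, limma Padj = 0.0221), a call that was lost without adult EH replicate 5 or adult DH replicate 3 (Padj up to 0.0587). The call was also lost under 2 alternatives that kept every rat (limma Padj up to 0.0875). In aged rats the LFC of Avp with DH was 0.21 ± 0.161 (limma Padj = 0.502). Oxt had an LFC of 0.26 ± 0.0742 with age (limma Padj = 0.0524), from 72410 to 88841 in adult EH to 86313 to 114663 in aged EH rats. It passed when aged EH replicate 1 or adult EH replicate 4 was left out (LFC 0.31 and 0.30, Padj = 0.0283 and 0.0458), and by edgeR and DESeq2 on whole reads (Padj = 0.0487 and 0.00624).

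Oprk1 (ENSRNOG00000007647), the kappa opioid receptor that inhibits the cell on which it sits, overlapped between EH and DH in adults. There it had normalised counts of 419, 422, 367, 425 and 398 in EH and 413, 339, 439, 415 and 496 in DH rats, an LFC of 0.04 ± 0.0873 (limma Padj = 0.82). In aged rats they were 452, 546, 460.2, 438 and 430.4 in EH and 335, 369.5, 472, 423 and 347 in DH. Here 4 of 5 DH rats were below every EH rat and replicate 3 was not. The LFC was -0.26 ± 0.0959 with a 95% interval of -0.47 to -0.06 and did not pass (limma Padj = 0.12), and without aged DH replicate 3 it was -0.34 and passed (Padj = 0.0433). That rat also had the highest sum of magnocellular markers of all 20.

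With age the EH ranges of Oprk1 did not overlap (LFC 0.19 ± 0.0717, limma Padj = 0.149), as for 6.38% of all genes tested. The highest adult EH rat had 425.1 and the lowest aged EH rat 430.4. The response to DH in aged rats less that in adults was -0.30 ± 0.137 (limma Padj = 0.479). No gene passed the test of this difference between ages, either by limma (0% of 15326) or by edgeR on the reads. DESeq2 gave an adjusted p to 9090 genes and called 55 of them (0.605%), none among the 7 tested receptors. Avpr1a was among the genes without an adjusted p in that fit, and Cckbr, chosen for its change, was not counted. At an unadjusted p under 0.05, 1 of the 7 tested receptors (Oprk1) and 9.93% of all genes had such a difference.

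Pdyn, the gene of the kappa receptor's ligand dynorphin, moved more than Oprk1 did. Its normalised counts were 14234, 10196, 12816, 14284 and 15593 in adult EH and 25950.3, 28354, 27320.5, 25581 and 29888 in adult DH rats, with no overlap (LFC 1.04 ± 0.0895, limma Padj = 6.33e-06). It was 17325 to 29853 in aged EH rats, all above the adult EH rats (LFC 0.78 ± 0.126, limma Padj = 0.00308). In aged DH rats it was 28368 to 47905 (LFC 0.58 ± 0.144, limma Padj = 0.0262), a call lost without aged EH replicate 1, 5 or 6 or aged DH replicate 5 (Padj up to 0.0682). The same call was lost under 1 alternative that kept every rat (limma Padj = 0.106). Pdyn is also 1 of the 5 magnocellular markers. Of the other opioid receptors, Oprm1, the mu receptor, had an LFC between -0.01 and 0.06 in the 3 comparisons. Oprd1, the delta receptor, had an LFC of -0.18 ± 0.227 with age, -0.45 ± 0.23 with DH in adults and 0.10 ± 0.279 with DH in aged rats, none of which passed (limma Padj = 0.728, 0.232 and 0.89). There was a fall of Oprl1, the nociceptin receptor, by 0.14 with DH in adults (limma Padj = 0.0431) that passed only without adult EH replicate 1 or 4 among the fits that each left out 1 rat (Padj up to 0.0998 in the others). Under 2 alternatives that kept every rat the Oprl1 call was also lost (limma Padj up to 0.139).

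Galr1 (ENSRNOG00000016654), the galanin receptor that inhibits neurones through Gi proteins, had normalised counts of 449, 305, 499.7, 560.3 and 488 in adult EH and 564, 474, 560.1, 541 and 571 in adult DH rats. The groups overlapped, and 1 adult EH rat at 305 was below all 19 others. The LFC was 0.26 ± 0.128 with a 95% interval of -0.01 to 0.54 (limma Padj = 0.211). In aged rats the counts were 487, 422, 534, 467 and 478 in EH and 468, 403, 547, 447 and 449 in DH, with an interval of -0.22 to 0.13 (limma Padj = 0.797). Gal, the gene of its ligand, stayed between 1004 and 2265 in all 20 rats, and its LFC was -0.24 ± 0.129 with age, 0.04 ± 0.152 with DH in adults and 0.08 ± 0.127 in aged rats, none of which passed (limma Padj = 0.317, 0.91 and 0.788).

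Agtr1a (ENSRNOG00000018346), the main angiotensin II receptor of the rat brain, had normalised counts of 38.2, 63.9, 68.01, 36.1 and 39.3 in adult EH and 66.99, 59.2, 47.9, 54.9 and 46.6 in adult DH rats. They were 31.1, 51.0, 29.6, 65.4 and 58.5 in aged EH and 72.4, 46.1, 43.7, 37.9 and 48.4 in aged DH rats. Rats of 1 group differed by up to 2.21-fold and all groups overlapped. The 95% interval of the LFC was -0.63 to 0.48 with age, -0.23 to 0.63 with DH in adults and -0.41 to 0.63 with DH in aged rats (limma Padj = 0.911, 0.562 and 0.851). Agt, which encodes the angiotensin precursor and is made by astrocytes, had 15270 to 23869 in the 20 rats and passed in no comparison, and neither did Agtr2 or Mas1, other receptors of angiotensin peptides.

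**Figure D4:**
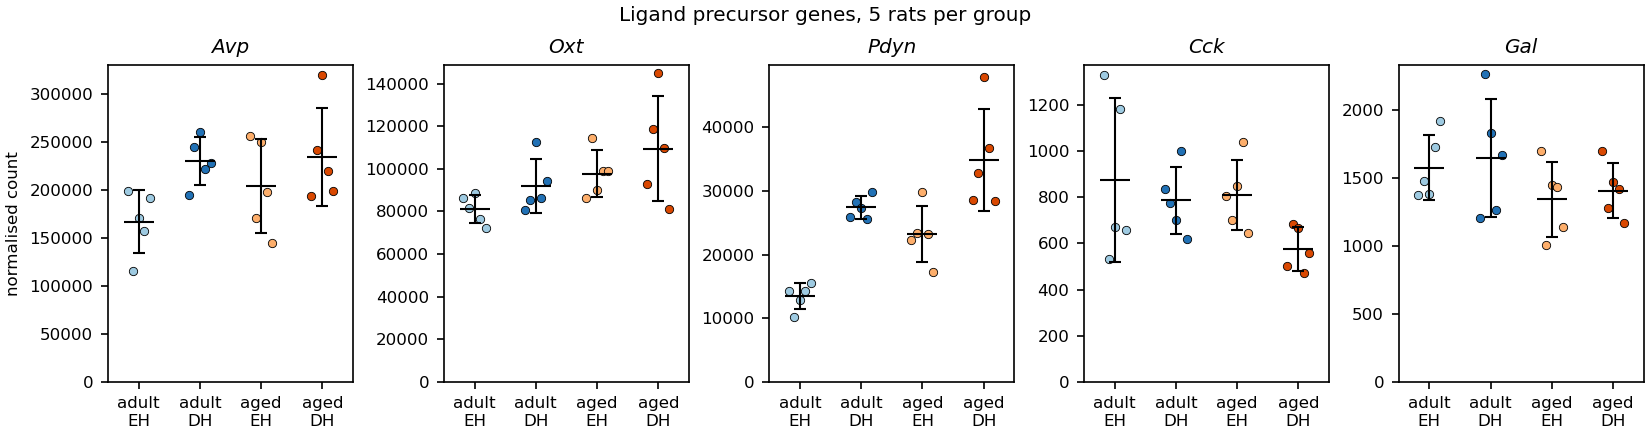
Normalised counts (vertical, from 0) of 5 ligand precursor genes in the 4 groups, 1 point per rat, with bars at the mean ± SD of 5 rats. Pdyn separated adult EH rats (10196 to 15593) from all others, whereas Gal and Oxt overlapped between EH and DH at each age.

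Close relatives of the 10 receptors were taken from a list of 20 genes, of which 19 were found and 12 had enough reads to be tested in at least 1 comparison. With age 1 rose and none fell, with DH in adults 3 rose and 1 fell, and with DH in aged rats 2 rose and none fell. Their median LFC was -0.08, 0.01 and 0.08, against a median of all genes within 0.01 of 0. Of all genes tested, 2.69% rose and 3.3% fell with age, 7.67% rose and 4.99% fell with DH in adults, and 4.05% rose and 3.25% fell with DH in aged rats. The members that moved most were relatives of Gipr. Glp1r, the GLP-1 receptor, rose with DH in adults from 266 to 332 in EH to 522 to 693 in DH (LFC 0.96 ± 0.0893, limma Padj = 1.26e-05). It rose with age by 0.50 ± 0.109 (limma Padj = 0.0162), and with DH in aged rats by 0.61 ± 0.152 (limma Padj = 0.0258), where the call was lost without aged EH replicate 2 or 5 or aged DH replicate 1, 3 or 5 (Padj up to 0.0674). This last call was also lost under 1 alternative that kept every rat (limma Padj = 0.0736).

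Sctr, the secretin receptor, rose with DH in adults from 15.1 to 47.0 in EH to 92.6 to 109 in DH (LFC 1.58 ± 0.236, limma Padj = 0.000696). It had an LFC of 0.92 ± 0.316 with age and 0.85 ± 0.266 with DH in aged rats, neither of which passed (limma Padj = 0.108 and 0.0692). Gipr, Glp1r and Sctr all couple to Gs and cAMP, and their LFCs with DH were negative for Gipr and positive for Glp1r and Sctr at each age.

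A wider list of 62 genes of other peptide receptors and their accessory proteins, of which up to 50 could be tested, gave 2 higher and 3 lower with age, 6 higher and 2 lower with DH in adults and 5 higher and 2 lower with DH in aged rats. Over all genes 2.69% were higher and 3.3% lower with age. With DH the shares were 7.67% and 4.99% in adults and 4.05% and 3.25% in aged rats, and the counts were not tested against them. Grpr, the receptor of gastrin-releasing peptide, rose with DH from 24.8 to 76.5 in EH to 85.9 to 303 in adult rats (LFC 2.32 ± 0.359, limma Padj = 0.0009) and from 60.8 to 185 to 264 to 378 in aged rats (LFC 1.33 ± 0.252, limma Padj = 0.00584). Mchr1, the receptor of melanin-concentrating hormone, rose by 0.61 ± 0.0794 in adults and 0.51 ± 0.0726 in aged rats (limma Padj = 0.000226 and 0.00131). F2r, the thrombin receptor PAR1, rose by 0.60 ± 0.107 and 0.50 ± 0.0924 (limma Padj = 0.00246 and 0.00484).

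Several of these other receptors fell. Sstr1, an inhibitory somatostatin receptor, fell with DH in aged rats from 406 to 478 in EH to 297 to 353 (LFC -0.43 ± 0.0705, limma Padj = 0.00241), and in adults its LFC was -0.08 ± 0.0888 (limma Padj = 0.6). Aplnr, the apelin receptor, fell with age from 1045 to 1276 to 693 to 924 (LFC -0.59 ± 0.0754, limma Padj = 0.000631). Ednra, an endothelin receptor of vascular smooth muscle, fell with age by 0.37 (LFC -0.37 ± 0.0817, limma Padj = 0.0173). For none of these genes did the difference between ages in the response to DH pass the test.

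**Figure D5:**
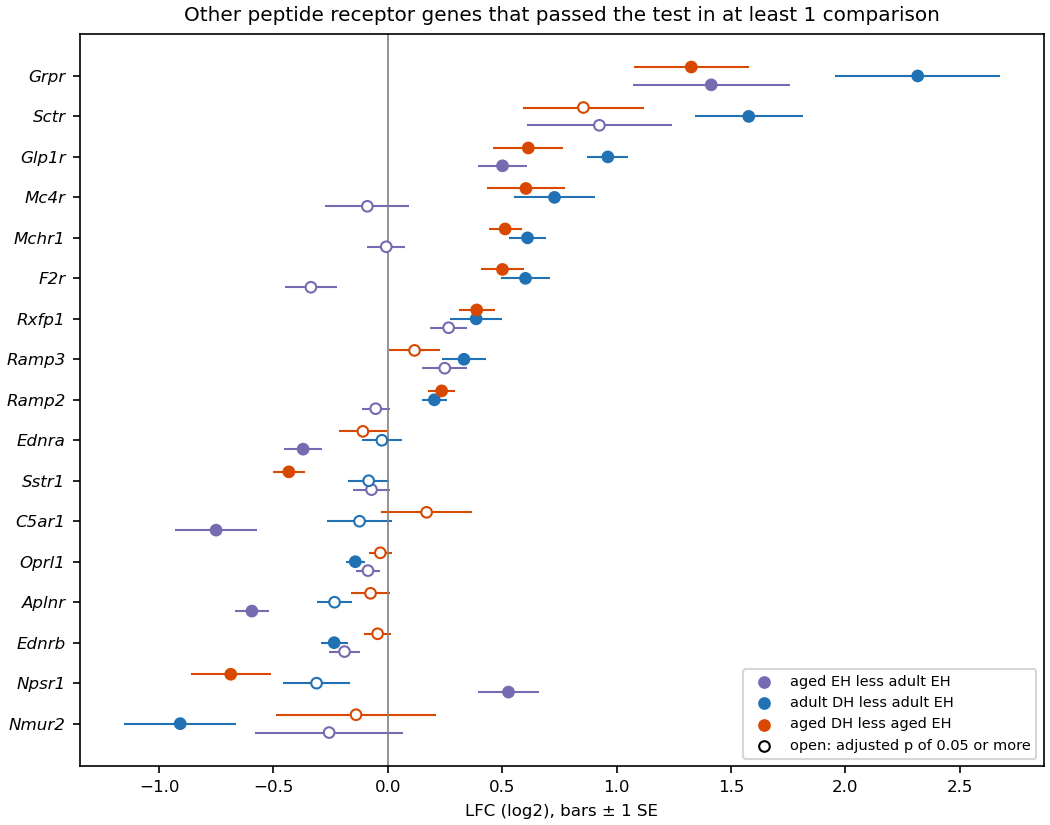
LFC (horizontal, log2) with bars of ± 1 SE for the peptide receptor genes outside the 10 that passed the test in at least 1 comparison, ordered by their LFC with DH in adults. Colours give the comparison, and open circles did not pass. Grpr, Sctr and Glp1r lie farthest to the right with DH in adults (2.32, 1.58 and 0.96).

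The genes of peptide processing and breakdown moved in part with DH. On the list of 28 ligand, processing and breakdown genes, 3 of 17 tested rose with age and none fell, 4 of 18 rose with DH in adults and none fell, and 3 of 16 rose and 1 fell with DH in aged rats. Pcsk1, a convertase that cleaves prohormones, rose with DH in adults from 936 to 1333 in EH to 1906 to 2183 (LFC 0.76 ± 0.0814, limma Padj = 4.07e-05). Pcsk2, another convertase, rose with DH in aged rats by 0.24 ± 0.04 (limma Padj = 0.00274). Below the receptors, 42 genes of G proteins, their regulators and effectors gave 1 higher and 2 lower with age, 2 higher and 2 lower with DH in adults and none higher and 3 lower with DH in aged rats. For both lists, the shares over all genes were 2.69% higher and 3.3% lower with age. They were 7.67% and 4.99% with DH in adults and 4.05% and 3.25% with DH in aged rats, and the counts were not tested against them. Rgs4, which shortens Gi and Gq signals, fell with DH by 0.31 in adults (LFC -0.31 ± 0.0455, limma Padj = 0.000656) and by 0.23 in aged rats (LFC -0.23 ± 0.0534, limma Padj = 0.0178). Gnal, the Golf alpha subunit, rose with age (LFC 0.27 ± 0.0362, limma Padj = 0.000839).

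Over these 4 lists, 48 results passed the test and 25 of them passed in every fit that left out 1 rat, among them those given above for Sctr, Grpr, Mchr1, F2r, Sstr1, Pcsk1, Pcsk2 and Rgs4 with DH and for Aplnr, Ednra and Gnal with age. The call of Grpr with age (LFC 1.41 ± 0.343, limma Padj = 0.028) did not survive omission of replicate 1, 4 or 5 of the aged group or 4, 5 or 6 of the adult group (Padj up to 0.0715). Nor did it pass under 1 alternative that kept every rat (limma Padj = 0.0727). Of the 48 results, 23 passed under every alternative tried.

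The genes whose pattern over the 20 rats was most like that of each receptor were found by Pearson's r of log2(deposited value + 1). Each rat had its value from the DH comparison of its age, so adult and aged rats were scaled separately. The r is a description that includes the differences between groups. For Rxfp3 the most alike genes were Stk39 (r = 0.97), a kinase that acts on cation-chloride cotransporters, Ctsf (0.97) and Pde8b (0.96). For Cckbr they were Vgf (0.96), a secreted neuropeptide precursor, Tnfaip6 (0.96) and Mmd (0.96), and for Gipr they were Cap2 (0.94), Bpifb4 (0.94) and Spint1 (0.94). Once the mean of each group was taken off, r was 0.78 for Stk39 with Rxfp3, 0.39 for Vgf with Cckbr and 0.43 for Cap2 with Gipr.

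For Oprk1 the nearest gene was Tpd52l1, with r = 0.92 over the 20 rats and 0.90 with group means taken off, and the next gene, Cnot10, had 0.72. Nearest genes of the other receptors were Cpne9 for Oxtr (0.82, and 0.59 with group means taken off), Tspan9 for Bdkrb2 (0.79 and 0.54), Fam20b for Galr1 (0.79 and 0.81), Mgat4c for Cckar (0.78 and 0.79), Abat for Agtr1a (0.75 and 0.75) and Aldh1b1 for Avpr1a (0.72 and 0.85).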

How the data were processed

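RNA of SON punches had been sequenced by the authors as paired-end reads from stranded poly(A) libraries, and the authors used STAR with the rat genome Rn6, featureCounts and DESeq2. The deposited values are a normalised signal, read counts divided by a DESeq2 size factor, in 3 tables (ageing, DH in adults, DH in aged rats). The authors' fold changes and p-values in these tables were not used. All 30 per-sample columns were used, and the 10 EH rats are in 2 tables each. Every value was a whole multiple of 1 step (tolerance 0.1 reads), which gave whole reads for all 20 libraries, identical between tables in 10 of 10 repeated rats. Levels shown are these reads over median-of-ratios size factors of all 20 rats. The test was limma 3.58.1 (R 4.3.3), following the mean, on log2(deposited value + 1) for genes with a mean of at least 10, two-sided, with Benjamini-Hochberg adjustment and a threshold of 0.05. The difference of the DH responses was fitted over 20 rats, each with its value from the DH table of its age. edgeR 4.0.16 and DESeq2 1.42.0 on whole reads were alternatives, and the code was tested on simulated data.

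Groups came from the sample labels. The methods state that adult and aged tissue was collected, extracted and sequenced in parallel, but the study also calls the adult data published earlier. The labels name no batch, so whether age coincides with a batch was not tested. The members, the lists of related genes and the cell type markers were chosen with earlier results of these data known, so counts over them are descriptions. The genes named were the members, their ligand genes, close relatives with a mean of at least 10, other listed genes that passed in at least 1 test, and for each member the genes most like it. Promoters came from RefSeq (GRCr8). A replicate number was taken as a name, since of the rats of 2 groups that shared a number, the correlation of deviations from group means exceeded 0.1 in only 1 pair per comparison.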

Additional observations from a re-analysis of the deposited data

Results flagged for a closer look

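In 3 of the 40 sets of 5 rats (10 receptors in 4 groups), the highest rat stood apart from the rest by Dixon's criterion, which chance alone meets in about 1 of 20 sets. Gipr in adult EH replicate 5 had a normalised count of 119.7 against 64.9 to 80.4 in the other 4 rats, and it remained below every aged rat. Bdkrb2 in aged DH replicate 3 had 82.5 against 18.0 to 36.2. Oprk1 in aged EH replicate 2 had 546 against 430.4 to 460.2. The LFC of Gipr with age was between 1.75 and 1.96 and that of Oprk1 between 0.13 and 0.21 when any 1 rat was left out.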

How the results depend on the processing

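Rxfp3 kept its direction and its call with age, with DH in adults and with DH in aged rats under every alternative tried, which were another pseudocount, no filter or a stricter filter on low counts, other scalings, robust moderation, the replicate block, edgeR and DESeq2 on whole reads, and leaving out each rat. Fits of whole reads for age, DH in aged rats and the difference between ages, and size factors over all 20 rats, were added after seeing the data. With the replicate block the number of the 7 tested receptors called was 1 with age, 1 with DH in adults, 1 with DH in aged rats and 0 for the difference between ages, as without it. The block lowered the genes called over all genes with DH in adults from 1934 to 987 and with DH in aged rats from 1119 to 653. Leaving out 1 rat gave 1 to 2 receptors called with DH in aged rats, with 2 only without aged DH replicate 3, when Oprk1 passed.

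Small LFCs changed sign, none of them called. With age, Avpr1a was -0.018 with the same total in each library, and Cckar was 0.0043 with the same upper quartile and 7.84e-06 with size factors over all 20 rats. With DH in aged rats, Avpr1a was -0.032 by edgeR and -0.030 by DESeq2. With DH in adults, Cckar was -0.012 with the same total, -0.015 by edgeR and -0.018 by DESeq2, and the difference between ages for Cckar was -0.031 with the replicate block. When each rat was left out in turn, the LFC ran from -0.12 to 0.14 for Avpr1a, from -0.097 to 0.18 for Cckar, from -0.21 to 0.067 for Agtr1a, from -0.066 to 0.15 for Galr1, from -0.20 to 0.13 for Cck with age, from -0.080 to 0.14 for Cckar, from -0.023 to 0.12 for Oprk1, from -0.23 to 0.093 for Cck and from -0.087 to 0.14 for Gal with DH in adults, from -0.099 to 0.15 for Avpr1a, from -0.097 to 0.18 for Cckar, from -0.034 to 0.24 for Agtr1a and from -0.021 to 0.17 for Gal with DH in aged rats, and from -0.11 to 0.17 for Cckar and from -0.24 to 0.041 for Agtr1a for the difference between ages. The cause of these changes was not tested. Reads of 18 to 37 per library limited what could be seen for Oxtr, and the spread of rats within a group, up to 2.21-fold, limited Agtr1a and Cckar.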
